A study of Mus musculus with 24 samples.

Results

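The values of 9 genes of the tibialis anterior (TA) muscle are given here: St3gal1, Pim1, Nhs, Leng8, Slc24a3, Zhx2, Atxn2l, Tet2 and Rad52. They were chosen by measured values of the same mice, since each was higher after photobiomodulation therapy (PBMT) than in controls in both sedentary and fatigued muscle at an unadjusted edgeR p under 0.05. These 9 are part of 11 genes that met the rule among 14021 genes tested in both comparisons and 55487 genes listed, and the other 2 were Bhlhe40 and Edn1. The values of the 9 genes in the PBMT comparisons are therefore a description and carry no test.

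All mice were wild-type C57BL/6J males of 5 to 7 weeks, with 6 in each of 4 groups. Sedentary PBMT mice had the shaved legs exposed to 830 nm light from an LED panel for 20 min under anesthesia, and TA was taken 24 h later. Sedentary control mice were shaved and anesthetized in the same way without light. Fatigued PBMT and fatigued control mice had the corresponding treatment and then ran on a treadmill to exhaustion before dissection. In the fatigued PBMT mice the run came 24 h after the light. The mice that ran had been acclimatized to the treadmill on earlier days. The fatigued mice ran for different lengths of time, so PBMT and run time cannot be told apart in them. Each state was a sequencing project of its own, so state and project cannot be told apart. The library totals were 43271093 to 46904076 in sedentary control, 46327516 to 52775844 in sedentary PBMT, 56792327 to 68726155 in fatigued control and 53122528 to 68566029 in fatigued PBMT mice. Fast fiber markers summed to 161284 ± 19921 CPM (counts scaled by TMM library size; SD, n = 12) in sedentary and 204685 ± 16301 CPM in fatigued mice, and slow fiber markers to 99.1 ± 15.1 and 119 ± 41.3 CPM, not adjusted for gene length.

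Sedentary control replicate 4 was unlike the other mice of its group over the whole library, which was measured after the values had been seen. Mitochondrially encoded genes held 3.25% of its counts, against 15.5% to 17.0% in the other 5. Its median absolute log2 difference from the mean of the others was 0.29 over 11839 genes, against 0.11 to 0.15 for those 5. It was kept in the fits, and the cause was not tested. Without it the log2 fold changes with PBMT in sedentary muscle of all 9 genes stayed above 0, the sign for which they were chosen. Of the 9 genes, 8 met the rule, with Slc24a3 outside it.

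The 9 genes do not form a single pathway. Pim1 encodes a serine/threonine kinase that is induced through Jak-Stat signaling, St3gal1 a Golgi enzyme that adds sialic acid to O-linked glycans, Slc24a3 a potassium-dependent sodium-calcium exchanger, and Nhs a regulator of actin remodeling. The others act in the nucleus or on RNA: Tet2 oxidizes methylated cytosine in DNA, Zhx2 is a zinc finger and homeobox transcription factor, Rad52 takes part in homologous recombination, Leng8 is a SAC3-domain protein linked to mRNA export, and Atxn2l is a relative of ataxin-2 found in stress granules.

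In sedentary muscle, 472 of 14177 genes tested (3.33%) were higher with PBMT and 610 (4.3%) were lower at unadjusted p under 0.05. In fatigued muscle the numbers were 157 higher (1.08%) and 73 lower (0.501%) of 14574. Without sedentary PBMT replicate 2 the sedentary total of 1082 became 1754, and it was 2034 in limma voom and 2125 without the filter. The fatigued total of 230 became 383 without PBMT replicate 1, 362 without PBMT replicate 2 and 346 without control replicate 5, and it was 458 in DESeq2, 407 in limma voom and 1001 without the filter. With a block for replicate number it was 354. The 11 genes higher in both made up 0.0785% of the 14021 genes tested in both, 2.33% of the genes higher in sedentary muscle and 7.01% of those higher in fatigued muscle, and 0 genes were lower in both. After Benjamini-Hochberg adjustment, edgeR called 3 genes higher and 1 lower in sedentary muscle, and 0 in fatigued muscle, where 230 had an unadjusted p under 0.05 and DESeq2 called 2 and limma voom 0. None of the 9 genes was among the edgeR calls, and Tet2 was among the DESeq2 calls in sedentary muscle, where it had been chosen. The sedentary count of 4 depended on the tool and on single mice, with 60 in DESeq2, 47 in limma voom, 20 without sedentary PBMT replicate 5, 18 without sedentary control replicate 4, 10 without sedentary PBMT replicate 2, 7 without sedentary PBMT replicate 4, and 2 without sedentary control replicate 1, 2 or 6. The 11 genes higher in both became 32 in limma voom, 22 without fatigued PBMT replicate 1, 18 without fatigued control replicate 5 and 6 without fatigued control replicate 2. They became 18 with the replicate block and 7 with the transcript length trend removed, each holding 4 of the 9 genes. The members nearest to the threshold were Rad52, with unadjusted p of 0.0294 in sedentary and 0.0424 in fatigued muscle, and Tet2, with 0.00102 and 0.0423. Just outside it lay B3galnt2, with 0.0305 and 0.0526, and Syt12, with 0.0491 and 0.0536, both named for their place beside the threshold.

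**Figure D1:**
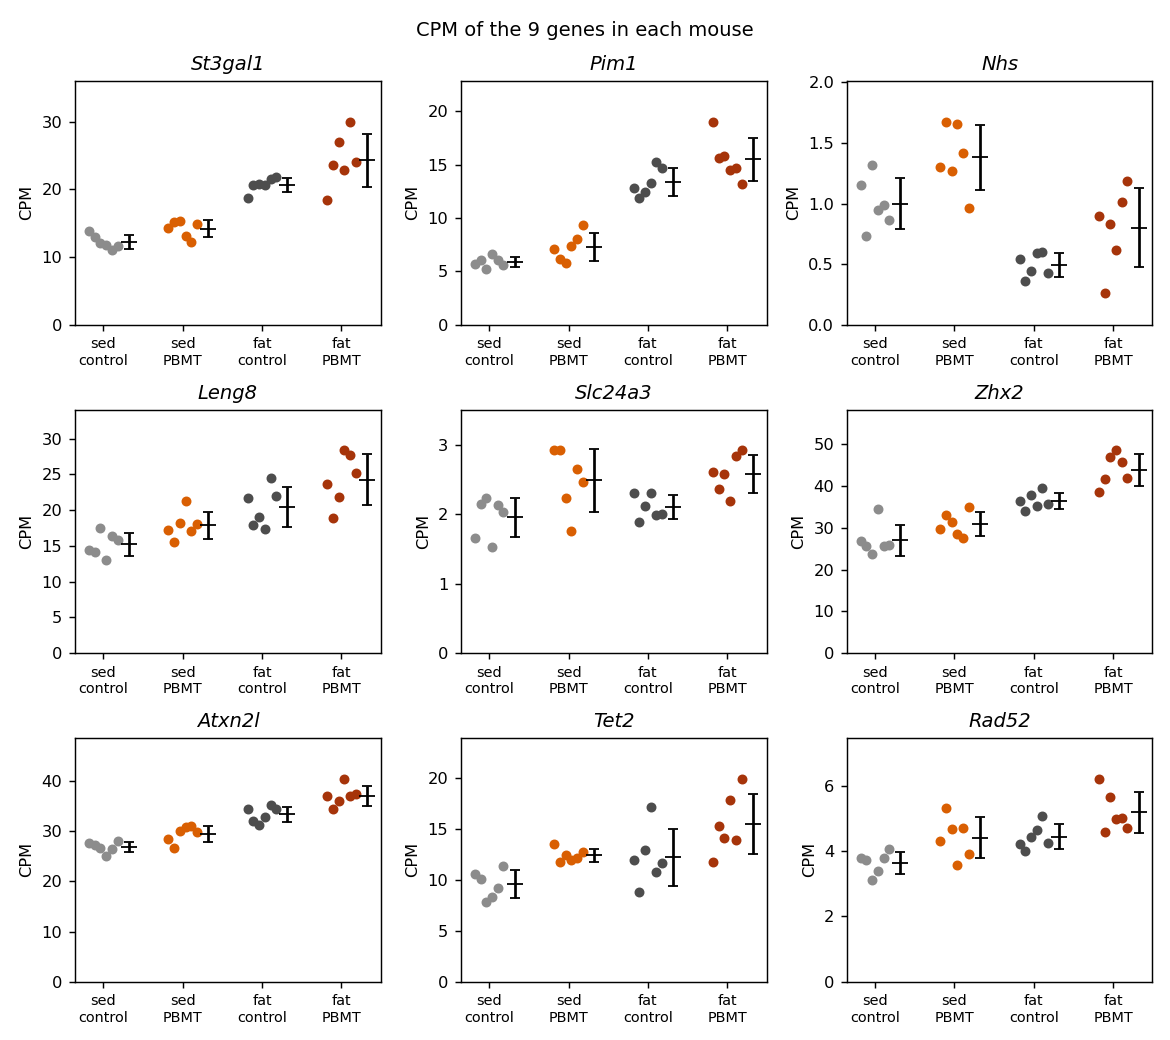
CPM (y axis from 0) of the 9 genes in each mouse, with 6 mice in each of the 4 groups on the x axis (sed, sedentary; fat, fatigued). Points are mice and bars are mean ± SD, and Tet2 in sedentary muscle is the 1 case in which all PBMT points lie above all control points.

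Pim1 in sedentary muscle was 5.20 CPM in the lowest, 5.87 in the median and 6.63 in the highest control mouse, and 5.82, 7.26 and 9.33 CPM with PBMT. In fatigued muscle the lowest, median and highest were 11.9, 13.1 and 15.2 CPM in controls and 13.2, 15.2 and 19 CPM with PBMT. The PBMT and control groups overlapped in both states, and 4 of 6 sedentary and 3 of 6 fatigued PBMT mice lay above every control. The log2 fold change was 0.32 ± 0.11 (SE) in sedentary and 0.21 ± 0.09 in fatigued muscle.

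St3gal1 ran from 11.0 through a median of 11.9 to 13.8 CPM in sedentary controls and from 12.2 through 14.6 to 15.3 CPM with PBMT. In fatigued muscle it ran from 18.8 through 20.7 to 21.8 CPM in controls and from 18.4 through 23.8 to 30.0 CPM with PBMT. Above every fatigued control were 5 of the 6 PBMT mice. The fatigued PBMT group held both the lowest and the highest fatigued mouse, so its spread enclosed that of the controls. The log2 fold changes were 0.22 ± 0.08 and 0.23 ± 0.09 (SE).

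Slc24a3 was low, with 1.54, 2.08 and 2.23 CPM in the lowest, median and highest sedentary control and 1.75, 2.55 and 2.92 CPM with PBMT. In fatigued muscle the values were 1.90, 2.06 and 2.31 CPM in controls and 2.19, 2.60 and 2.92 CPM with PBMT. Of the 6 PBMT mice, 4 in sedentary and 5 in fatigued muscle were above all controls of their state. The log2 fold changes were 0.35 ± 0.16 and 0.30 ± 0.12 (SE).

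Nhs was at few reads, with 0.735, 0.967 and 1.32 CPM in the lowest, median and highest sedentary control and 0.962, 1.36 and 1.68 CPM with PBMT. In fatigued muscle it was at 0.361, 0.491 and 0.603 CPM in controls and 0.263, 0.864 and 1.19 CPM with PBMT. These values rest on 15 to 84 reads per mouse. A single fatigued PBMT mouse was below every fatigued control while the other 5 were above all of them. The log2 fold changes were 0.47 ± 0.19 and 0.70 ± 0.30 (SE).

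Tet2 was 7.80, 9.63 and 11.4 CPM in the lowest, median and highest sedentary control and 11.7, 12.3 and 13.5 CPM with PBMT. All 6 sedentary PBMT mice were above all 6 controls, a separation in that direction found in 29 genes, or 0.205% of those tested. In fatigued muscle Tet2 was 8.85, 11.8 and 17.2 CPM in controls and 11.7, 14.7 and 19.9 CPM with PBMT, and only 2 PBMT mice exceeded the highest control. The same separation in fatigued muscle was found in 1 gene, or 0.00686% of those tested, which was none of the 9. The log2 fold changes of Tet2 were 0.39 ± 0.10 and 0.34 ± 0.15 (SE).

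Zhx2 was 23.7, 25.8 and 34.4 CPM in the lowest, median and highest sedentary control and 27.5, 30.4 and 35.0 CPM with PBMT. The highest control stood far from the other 5, and 1 PBMT mouse exceeded it, whereas those 5 controls were below the lowest PBMT mouse. In fatigued muscle the values were 34.0, 36 and 39.4 CPM in controls and 38.4, 43.8 and 48.5 CPM with PBMT, with 5 of 6 PBMT mice above all controls. On the log2 scale the fold changes were 0.20 ± 0.09 and 0.27 ± 0.06 (SE).

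Atxn2l spread little within groups, with a coefficient of variation of 3.82% to 5.60%. It was 25.1, 26.9 and 28.0 CPM in the lowest, median and highest sedentary control and 26.7, 30.0 and 31.1 CPM with PBMT. In fatigued muscle it was 31.3, 33.6 and 35.2 CPM in controls and 34.4, 37.1 and 40.5 CPM with PBMT. In each state 5 of 6 PBMT mice were above all controls, at log2 fold changes of 0.14 ± 0.06 and 0.15 ± 0.05 (SE).

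Leng8 was 13.0, 15.2 and 17.5 CPM in the lowest, median and highest sedentary control and 15.5, 17.6 and 21.2 CPM with PBMT. In fatigued muscle it was 17.4, 20.4 and 24.5 CPM in controls and 18.9, 24.4 and 28.4 CPM with PBMT. In each state 3 PBMT mice were above all controls. On the log2 scale the fold changes were 0.24 ± 0.09 and 0.25 ± 0.11 (SE).

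Rad52 was 3.12, 3.75 and 4.06 CPM in the lowest, median and highest sedentary control and 3.57, 4.49 and 5.33 CPM with PBMT. In fatigued muscle it was 3.99, 4.35 and 5.09 CPM in controls and 4.59, 4.99 and 6.22 CPM with PBMT. The groups overlapped in both states, and 4 sedentary and 2 fatigued PBMT mice were above all controls. On the log2 scale the fold changes were 0.28 ± 0.12 and 0.22 ± 0.10 (SE).

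Between the states, the PBMT effects of the 9 genes lay close together. The effect in fatigued minus that in sedentary muscle ran from -0.10 ± 0.15 (SE, log2) for Pim1 to 0.24 ± 0.35 for Nhs, and each difference was smaller than its SE. Both effects had chosen the genes, so these differences were not tested. Per mouse, 7 to 9 of the 9 genes were above the control median of the same state in each PBMT mouse, a direction that the choice of genes fixes. Among controls this number ran from 2 to 6 in sedentary and from 0 to 7 in fatigued mice, and the mouse with 0 was fatigued control replicate 2.

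Levels of the 9 genes were compared with each other per kilobase of exon. In sedentary controls Zhx2 stood at 6.09 ± 0.847 CPM per kilobase (SD, n = 6) and Atxn2l at 5.61 ± 0.214, which did not differ beyond their spread. Leng8 followed at 2.38 ± 0.254, then St3gal1 at 1.78 ± 0.148 and Pim1 at 1.75 ± 0.145, the latter pair within the spread of each other. Rad52 at 0.634 ± 0.0578 and Tet2 at 0.566 ± 0.0814 also overlapped, Slc24a3 was at 0.428 ± 0.0625, and Nhs was at 0.114 ± 0.0238. In fatigued controls Pim1 at 3.98 ± 0.385 CPM per kilobase was above St3gal1 at 3.02 ± 0.154.

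The difference between fatigued and sedentary muscle, averaged over PBMT and control mice, was not used to choose the genes. A choice by unadjusted p favors genes with little spread within groups, and the same spread enters this comparison. The counts of genes that passed or did not overlap are therefore not independent of the choice. Between states, 7 of the 9 genes were higher and 1 was lower in fatigued muscle at an adjusted p under 0.05, and Slc24a3 passed in neither direction. Over all 15108 genes tested, 2943 (19.5%) were higher and 3074 (20.3%) lower.

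**Figure D2:**
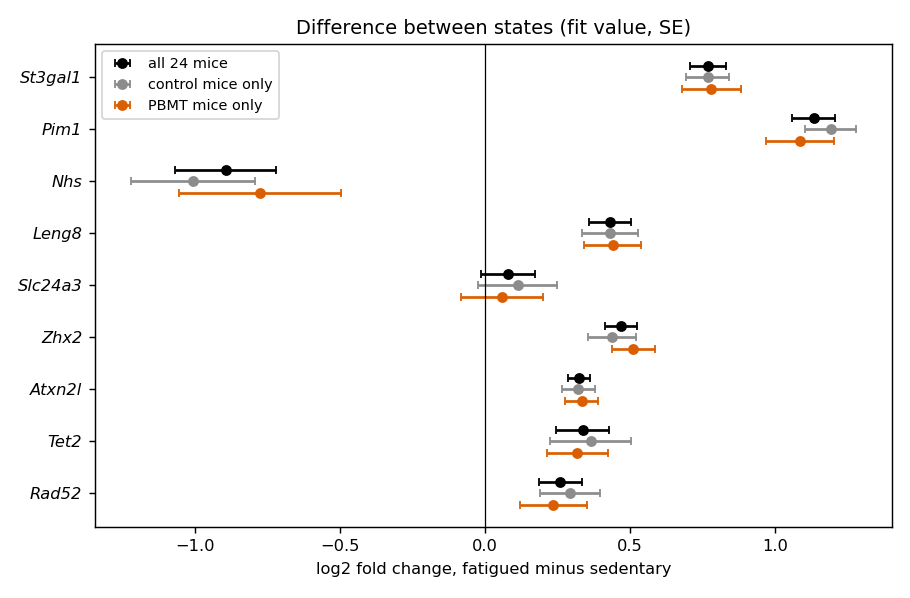
Log2 fold change of the 9 genes between fatigued and sedentary muscle (x axis, fatigued minus sedentary), as fitted values with SE, over all 24 mice and over the 12 control or the 12 PBMT mice alone. Over all 24 mice, Pim1 lies farthest to the right at 1.13 and Nhs farthest to the left at -0.90.

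Pim1 rose most, from a mean of 6.60 CPM in sedentary to 14.4 CPM in fatigued mice, and all 12 fatigued mice were above all 12 sedentary mice. Its log2 fold change was 1.13 ± 0.07 (SE; edgeR adjusted p = 2.35e-11). St3gal1 rose from 13.2 to 22.5 CPM, likewise without overlap, at 0.77 ± 0.06 (edgeR adjusted p = 9.71e-10). Atxn2l rose from 28.2 to 35.3 CPM without overlap, at 0.32 ± 0.04 (edgeR adjusted p = 2.24e-07). With the trend on GC content removed, the value of Atxn2l was 0.16 (edgeR adjusted p = 0.0225). The 12 mice of a state did not overlap the other 12, in either direction, in 420 genes or 2.78% of those tested, against 3 of the 9.

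Zhx2 rose by a log2 fold change of 0.47 ± 0.06 (SE; edgeR adjusted p = 3.95e-07), with 11 of 12 fatigued mice above every sedentary mouse, and Leng8 by 0.43 ± 0.07 (edgeR adjusted p = 3.46e-05), with 8 of 12. With the trend on GC content removed, the value of Leng8 was 0.28 (edgeR adjusted p = 0.0038). Tet2 rose by 0.34 ± 0.09 (edgeR adjusted p = 0.00467), with 6 of 12, and Rad52 by 0.26 ± 0.07 (edgeR adjusted p = 0.00711), with 2 of 12. Nhs was the exception in direction. It fell from a mean of 1.19 CPM in sedentary to 0.648 CPM in fatigued mice, at -0.90 ± 0.18 (edgeR adjusted p = 0.000246), with 8 of 12 fatigued mice below every sedentary mouse. Slc24a3 was 2.22 CPM in sedentary and 2.35 CPM in fatigued mice, at 0.08 ± 0.09 (edgeR adjusted p = 0.519). With fewer mice, Rad52 missed the threshold among controls alone (edgeR adjusted p = 0.0666) and among PBMT mice alone (0.144), Tet2 among controls alone (0.086) and Nhs among PBMT mice alone (0.0521), at log2 fold changes of 0.29, 0.24, 0.36 and -0.78.

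Markers of other cell types also differed between the states. Of 10 macrophage markers, 8 were higher in fatigued muscle at adjusted p under 0.05, and their sum went from 76.6 ± 30.6 to 122 ± 46.2 CPM (SD, n = 12). All 6 neutrophil markers were lower, with sums of 29.2 ± 16.0 and 1.40 ± 1.14 CPM, S100a9 holding the largest part of the sum and Ly6g at 0 in every fatigued control. Of 10 interstitial mesenchymal markers 8 were higher, with sums of 1580 ± 372 and 2770 ± 1076 CPM and Gsn as the largest part, and of 7 tendon markers 6 were higher, with sums of 164 ± 35.3 and 358 ± 195 CPM. Mitochondrially encoded genes held 10.5% to 12.9% of the counts in the 12 fatigued mice and 13.9% to 17.1% in the sedentary mice other than control replicate 4. The part of these values in the differences of the 9 genes was not tested. In whole muscle, fewer cells of a type and less RNA per cell cannot be told apart.

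With PBMT in sedentary muscle, 6 of 10 macrophage markers were lower at unadjusted p under 0.05 and 0 were higher, and the markers summed to 94.0 ± 32.9 CPM in controls against 59.3 ± 16.0 CPM with PBMT (SD, n = 6), with Lyz2 as the largest part and no marker at 0. In fatigued muscle 0 of 10 passed in either direction, and the sums were 118 ± 30.8 and 125 ± 60.9 CPM. The part of macrophage content in the values of the 9 genes was not tested.

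Direct relatives of the genes were measured in the same fits. Of the 19 relatives listed, 16 were tested in the PBMT comparisons, and Slc24a1, Slc24a4 and Slc24a5, with at most 6 reads in any mouse, were below the filter. The log2 fold changes with PBMT in sedentary and fatigued muscle were 0.15 ± 0.11 and -0.04 ± 0.08 (SE) for Atxn2, 0.15 ± 0.11 and -0.02 ± 0.06 for Zhx1, 0.41 ± 0.24 and -0.25 ± 0.25 for Tet1, and -0.36 ± 0.22 and 0.12 ± 0.21 for Pim3. None of the 16 had an unadjusted p under 0.05 in either comparison. Between states, the other TET genes moved against Tet2: Tet1 was lower in fatigued muscle at a log2 fold change of -0.81 ± 0.18 (edgeR adjusted p = 0.000902) and Tet3 at -0.40 ± 0.08 (edgeR adjusted p = 0.000157). St3gal6 was lower at -0.32 ± 0.06 (edgeR adjusted p = 0.000182) where St3gal1 was higher, and Nhsl2 was higher at 0.73 ± 0.15 (edgeR adjusted p = 0.000416) where Nhs was lower. St3gal3 at -0.09 ± 0.04 (edgeR adjusted p = 0.0375) and Nhsl1 at 0.27 ± 0.09 (edgeR adjusted p = 0.0218) also passed. The other relatives tested did not pass between states, and Slc24a2 was the nearest (edgeR adjusted p = 0.0528).

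The remaining genes of 10 pathway lists were described by counts and medians. List medians of log2 fold changes with PBMT ran from -0.10 in the actin list to 0.06 in the stress granule list in sedentary muscle and from -0.04 in the recombination list to 0.05 in the speckle list in fatigued muscle. Between states they ran from -0.06 in the DNA methylation list to 0.11 in the actin list, beside medians over all genes tested that lay within 0.01 of 0 in each comparison. Of the other genes of the lists, 18 of 262 tested in sedentary muscle (6.87%) and 3 of 267 in fatigued muscle (1.12%) had an unadjusted p under 0.05 with PBMT, against 7.63% and 1.58% of all genes tested. After adjustment, edgeR, DESeq2 and limma voom each called 0 of them in either state, with 19 and 8 unadjusted in DESeq2 and 40 and 9 in limma voom. Between states 110 of 271 tested (40.6%) were called by edgeR after adjustment, against 39.8% of all genes tested.

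Around Pim1, the Jak-Stat list had 2 higher and 3 lower of 40 in sedentary muscle with PBMT at unadjusted p under 0.05, and 2 higher and 0 lower in fatigued muscle. Bcl2l1, an inhibitor of apoptosis, was at -0.69 ± 0.19 (SE, log2) and Il6ra, the interleukin-6 receptor subunit, at -0.52 ± 0.15 in sedentary muscle. Stat3 was at 0.23 ± 0.08 and Socs3, a feedback inhibitor of the pathway, at 1.34 ± 0.59 in fatigued muscle. Between states 13 were higher and 6 lower after adjustment, led by Cntfr at 2.61 ± 0.18 (edgeR adjusted p = 3.99e-10) and Socs3 at 1.85 ± 0.35 (edgeR adjusted p = 0.000239).

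Around St3gal1, the glycan list had 1 higher of 27, C1galt1 at 0.28 ± 0.11 (SE, log2), in sedentary muscle with PBMT and 0 of 28 in fatigued muscle at unadjusted p under 0.05. C1galt1 builds the core 1 O-glycan to which St3gal1 adds sialic acid. Between states 4 were higher and 11 lower of 29, with St6galnac5 at 1.29 ± 0.43 (edgeR adjusted p = 0.0181) and St8sia4 at -0.96 ± 0.29 (edgeR adjusted p = 0.0115). Of the calcium transport list around Slc24a3, the exchanger Slc8a1 was the 1 gene past unadjusted p under 0.05 with PBMT, at 0.21 ± 0.09 in sedentary muscle, and it was lower in fatigued muscle at -0.67 ± 0.09 (edgeR adjusted p = 4.09e-06), while Atp2b4 was higher at 0.40 ± 0.09 (edgeR adjusted p = 0.00138). The actin list around Nhs had 0 higher and 2 lower of 27 in sedentary muscle, Brk1 at -0.16 ± 0.07 and Nckap1l at -0.66 ± 0.30, and 11 higher and 2 lower of 28 between states, with Baiap2 at 1.37 ± 0.16 (edgeR adjusted p = 1.74e-07) and Wasf1 at 1.21 ± 0.33 (edgeR adjusted p = 0.00481).

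Around Atxn2l, 4 of 34 stress granule genes were higher and 0 lower in sedentary muscle with PBMT at unadjusted p under 0.05, led by Fmr1 at 0.31 ± 0.11 (SE, log2) and Ubap2 at 0.20 ± 0.08, and 0 in fatigued muscle. Between states 6 were higher and 7 lower, with Dcp2 at -0.41 ± 0.07 (edgeR adjusted p = 8.12e-05) and Pabpc1 at 0.28 ± 0.05 (edgeR adjusted p = 3.73e-05). Of the speckle and detained-intron list around Leng8, Nktr in sedentary muscle (0.22 ± 0.10) and Pnisr in fatigued muscle (0.19 ± 0.08) were the single genes past that threshold, and between states 11 were higher and 4 lower of 38, with Meg3 at 0.57 ± 0.12 (edgeR adjusted p = 0.000458) and Ccnl1 at 0.39 ± 0.07 (edgeR adjusted p = 0.000101). The mRNA export list had 1 higher of 23 in sedentary muscle, Nup153 at 0.23 ± 0.10, 1 lower, Leng9 at -0.29 ± 0.13, and 0 in fatigued muscle. Between states 5 were higher and 5 lower, with Leng9 at 0.77 ± 0.12 (edgeR adjusted p = 2.58e-05) and Sac3d1 at -0.36 ± 0.11 (edgeR adjusted p = 0.0135).

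The list of DNA methylation genes around Tet2 had 0 of 27 past unadjusted p under 0.05 in both PBMT comparisons, and 3 higher and 8 lower between states, with Gadd45g at -1.60 ± 0.16 (edgeR adjusted p = 1.07e-07) and Uhrf1 at 1.25 ± 0.32 (edgeR adjusted p = 0.00306). The recombination list around Rad52 had 1 lower of 28, Mus81 at -0.19 ± 0.09, in sedentary muscle and 0 of 30 in fatigued muscle. Between states 2 were higher and 4 lower of 32, with Rad51ap1 at -1.04 ± 0.40 (edgeR adjusted p = 0.0416) and Rpa3 at -0.58 ± 0.13 (edgeR adjusted p = 0.000911). In the Zhx2 list 1 of 9, Gpc3, was lower with PBMT in sedentary muscle at -0.32 ± 0.13 (SE, log2), and 0 of 9 passed in fatigued muscle. Between states 3 were higher and 1 lower, with Gpc3 higher at 0.62 ± 0.12 (edgeR adjusted p = 0.000229) and Homez lower at -0.39 ± 0.13 (edgeR adjusted p = 0.0159).

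Whether the genes varied together from mouse to mouse was examined after the mean of each group had been subtracted, so that PBMT and state did not enter. Of the 36 pairs, 19 had a Pearson r above 0 and the median r was 0.016, and 1 pair passed adjustment. Leng8 and Atxn2l varied together over 24 mice (r = 0.719, permutation p = 0.00036, adjusted over 36 pairs p = 0.013; Spearman rho = 0.68, permutation p = 0.00102, adjusted p = 0.0367). Without the 2 mice farthest from the median of Leng8, r was 0.645. Sedentary control replicate 4, which stood apart over its whole library, was the lowest sedentary control for both genes. Its log2 differences from the group mean were -0.218 and -0.0932, and it was kept in both of these values of r. Within the sedentary project r was 0.547 and within the fatigued project 0.856, and in neither did the pair pass adjustment over the 36 pairs on its own, at adjusted permutation p of 0.561 and 0.0659.

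**Figure D3:**
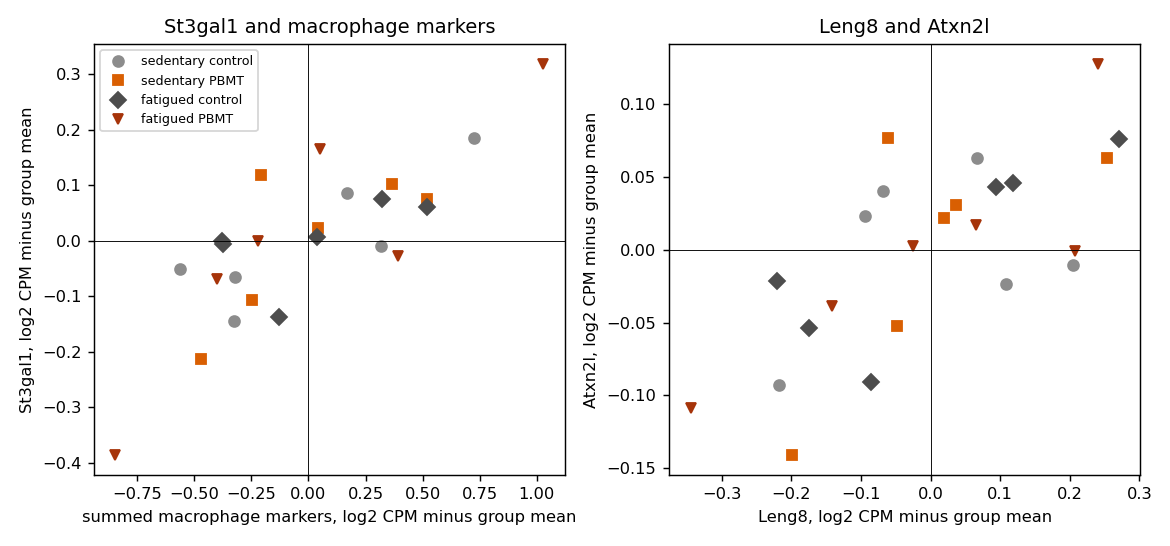
Left, log2 CPM of St3gal1 against the log2 of the summed CPM of 10 macrophage markers; right, log2 CPM of Atxn2l against Leng8, each as the difference from the mean of the mouse's own group. Points are the 24 mice, with 6 of each group, and both clouds run from lower left to upper right (r = 0.791 and 0.719).

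The genes most like each member over the 24 mice, after the same subtraction, differed between members. For St3gal1 they were Cd86 (r = 0.904), P2ry6 (r = 0.891) and Cmah (r = 0.883). Cd86 encodes a costimulatory ligand of antigen-presenting cells. For Tet2 they were Kat6a (r = 0.826), Sbno1 (r = 0.816) and Apc (r = 0.795), and for Leng8 the nuclear noncoding RNA Malat1 (r = 0.787), Fgl2 (r = 0.784) and Gm49759 (r = 0.782). For Atxn2l they were Zfp458 (r = 0.8), Ppp1r15b (r = 0.784) and Pde7a (r = 0.737), for Zhx2 Lrfn3 (r = 0.773), Fam110b (r = 0.77) and Lmna (r = 0.758), and for Nhs Mphosph6 (r = 0.825), Gata6 (r = 0.76) and Gm21781 (r = 0.739). For Pim1 they were 1110038B12Rik (r = 0.678), Pgpep1l (r = 0.656) and Wdr5 (r = 0.646), for Slc24a3 Hist3h2a (r = 0.682), Rbm45 (r = 0.658) and Fam217b (r = 0.656), and for Rad52 4930458D05Rik (r = 0.705), Gm9860 (r = 0.704) and Gm16409 (r = 0.683). Some of these genes were low. Mean CPM was 0.513 for Cd86, 0.765 for Cmah, 0.558 for Zfp458, 0.255 for Gata6, 0.22 for Gm9860 and 0.171 for Gm16409. The r values were the highest of all genes tested, so no p is given. Several were lower in the fatigued than in the sedentary project: for Slc24a3, Hist3h2a (0.0248 and 0.839) and Fam217b (0.237 and 0.763), for Pim1, Pgpep1l (0.321 and 0.814) and Wdr5 (0.430 and 0.779), and for Zhx2, Lmna (0.452 and 0.877). The r of Nhs with Mphosph6 was higher in it (0.934 and 0.583).

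Each of the 9 genes was then set against the summed markers of 14 cell types, a comparison added after the nearest genes had been seen. As the nearest genes of St3gal1 prompted it in the same mice, it is a description and no p is given. The relation of St3gal1 with the macrophage markers was the highest of 126 (r = 0.791, Spearman rho = 0.736). Without the 2 mice farthest from the median of the marker sum r was 0.653, and it was 0.77 within the sedentary and 0.806 within the fatigued project. The subtraction removed the group means, so this relation does not describe the PBMT comparison.

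In GENCODE coordinates on GRCm38, the genes lay on 7 chromosomes. St3gal1 (chr15:67102875-67176830) and Zhx2 (chr15:57694665-57839832) were on chromosome 15, and Leng8 (chr7:4137039-4148177) and Atxn2l (chr7:126491708-126503437) on chromosome 7. Pim1 was at chr17:29490753-29496112, Nhs at chrX:161833296-162159730, Slc24a3 at chr2:145167754-145642166, Tet2 at chr3:133463679-133545139 and Rad52 at chr6:119902698-119922828. Of the 9 genes, 8 had a longest transcript above the median of 3247 bases over the genes tested in both comparisons. These ran from 3553 bases in Rad52 to 9179 bases in Tet2, and that of Pim1 had 2698 bases. The longest transcript of Rad52 is annotated with 1 exon and is 1 of 14 transcripts of that gene. GC content of the longest transcript ran from 44.7% in Nhs to 57.2% in Atxn2l, against a median of 49.7%. Exons of Pim1 shared 488 bases (14.5% of its exon length) with the antisense gene Gm26885, and exons of Leng8 shared 263 bases (4.11%) with Leng9 on the other strand. As the strand setting of the counting is not given in the sources used here, reads of these pairs may not be separated.

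RefSeq promoters (GRCm38.p6) of 250 bases before to 50 bases after a start were matched for 7 of the 9 genes, with 11 starts in all, and St3gal1 and Zhx2 had no entry. GC content was 49.0% in 1 promoter of Pim1 and 61.3% to 81.3% in the others, against a median of 52.7% over 32851 promoters. The GC box GGGCGG occurred in 8 of the 11, for 6 genes, against 35.7% of 32851 promoters. The part of GC content in this count was not tested. CCAAT occurred in 3 of 11 against 37.4%, the E-box CACGTG in 1 (Pim1) against 7.15%, and the STAT motif TTCNNNGAA in 0 against 8.3%. The AP-1 motif TGANTCA (7.81%), the ETS motif CCGGAAG (8.86%) and the NRF1 motif GCATGCGC (2.71%) each occurred in 1, all in Leng8. The CRE TGACGTCA (1.79%), the Egr motif GCGTGGGCG (0.612%), TATAAA (13.6%), the D-box TTATGTAA (0.938%) and the CArG box (1.63%) occurred in 0. Both strands were searched, and a match describes letters and not a bound site.

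The stretches upstream of Leng8 (chr7:4136927-4137038, plus strand) and Atxn2l (chr7:126503438-126503687, minus strand) are printed because these were the pair that varied together. They are read 5′ to 3′ and lie outside annotated genes. Each gene has another start, whose upstream bases lie inside the gene and are not printed. That of Atxn2l has 3 CCAAT boxes upstream, and that of Leng8 has GC box and NRF1 matches. The AP-1 and ETS matches of Leng8 lie upstream of the printed bases. Capitals mark GC boxes, in Atxn2l on the opposite strand, and, in Leng8, a CCAAT box on the opposite strand.
Leng8: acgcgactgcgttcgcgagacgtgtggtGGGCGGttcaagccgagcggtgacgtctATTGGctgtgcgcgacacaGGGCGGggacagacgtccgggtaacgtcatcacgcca
Atxn2l: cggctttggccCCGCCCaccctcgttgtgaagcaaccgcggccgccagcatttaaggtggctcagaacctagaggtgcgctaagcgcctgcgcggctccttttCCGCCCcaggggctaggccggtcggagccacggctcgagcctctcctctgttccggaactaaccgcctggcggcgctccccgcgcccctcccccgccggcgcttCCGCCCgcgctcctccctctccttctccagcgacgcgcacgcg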

How the data were processed

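The count of reads per gene was deposited for each of the 24 mice without normalization; libraries were directional and paired-end after poly(A) selection. The submitters' processing notes name STAR 2.7.1a, featureCounts 1.6.0, HTSeq, StringTie 2.0.4, Picard 2.20.4, Trimmomatic and GRCm38, without order. Of 55487 identifiers, 55141 matched GENCODE M21, the source of symbols and coordinates. Library totals were 43271093 to 68726155. PBMT was compared with control within each project, and states over all 24 mice, in R 4.3.3 with edgeR 4.0.16 (TMM, filterByExpr minimum count 10, robust quasi-likelihood tests, Benjamini-Hochberg at 0.05), tested on simulated data. SE is the log2 fold change divided by the root of F. CPM used one TMM scale, with a prior count of 2 for log2. Correlations used 100000 two-sided permutations within groups. Alternatives used DESeq2 1.42.0, limma 3.58.1, DESeq2 size factors, no filter, a non-robust fit, a single model, a replicate block, removed length or GC trends, control or PBMT mice alone, each project alone for correlations, and each mouse left out. The members and lists were chosen with earlier results of these data known. Genes were named only from the members, their relatives, Bhlhe40 and Edn1, in each list the up to 2 smallest p with PBMT and 2 largest called changes between states, the 3 genes nearest to each member, and markers that moved. The overlapping genes and the 2 genes just outside the threshold were named after the values had been seen.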

Additional observations from a re-analysis of the deposited data

Results flagged for a closer look

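Zhx2 in sedentary control replicate 4 stood apart from the other mice of its group. It was at 34.4 CPM, and its gap to the nearest mouse took up 0.715 of the range of the group, above Dixon's 95% limit for 6 mice. Of 36 groups examined, 9 genes in 4 groups, this was the 1 that passed the limit, and chance passes about 1 in 20 groups. The mouse differed over its whole library, with 3.25% of its counts from mitochondrially encoded genes against 15.5% to 17.0% in the other 5. It was also the lowest control for Leng8, Atxn2l and Slc24a3 and the highest for Pim1. Without this mouse the log2 fold change of Zhx2 with PBMT in sedentary muscle was 0.27, against 0.20 with it.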

How the results depend on the processing

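The log2 fold changes of the 9 genes with PBMT kept their sign under every alternative run, 21 per gene and state. The genes had been chosen for that sign in the same mice, so this is no test of it. The unadjusted p stayed under 0.05 in 10 to 21 of these 21. The fewest were for Rad52 (10) and Pim1 (11) in fatigued and Zhx2 (11) and Atxn2l (12) in sedentary muscle. The number of genes higher in both states was 11, and became 32 with limma voom, 18 with the replicate block, 7 with the transcript length trend removed and 6 to 22 when 1 mouse was left out. Of the 9 genes, 5 were in the limma voom set, 4 in the replicate block set, 4 with the length trend removed, 6 with the GC trend removed and 6 without the filter. In sedentary muscle the adjusted count of 4 became 60 with DESeq2, 47 with limma voom, 16 with the GC trend removed, 16 without the filter, 12 with the length trend removed, 11 with the replicate block, 1 in a single model and 2 to 20 when 1 mouse was left out. Of these, 3 of 4 were higher, against 22 of 60 with DESeq2 and 11 of 47 with limma voom. In fatigued muscle the 0 became 2 with DESeq2 and 1 with the replicate block, and stayed 0 without any 1 mouse. Same-numbered mice correlated at -0.0715 to 0.0664 in sedentary muscle, where 1 of 6 correlated best with its own number, and at -0.0846 to 0.325 in fatigued muscle, where 3 of 6 did and 4 of 6 were over 0.1. The labels name no pairing, so the numbers were not taken to pair the mice. In the paper, control mice were present in each treadmill test, but the labels do not give the session of a mouse. The part of shared sessions in these values was not tested. The replicate block moved the unadjusted count in fatigued muscle from 230 to 354. The 6017 genes that differed between states became 2366 in control mice alone and 3859 in PBMT mice alone, where fewer mice entered, and ran from 5578 to 6795 when 1 mouse was left out. The share of higher genes was 2943 of 6017, and 2520 of 5821 with the GC trend and 2457 of 6135 with the length trend removed. It was 3620 of 7402 with limma voom and 2839 of 5823 with the replicate block. More genes were higher than lower with DESeq2 (3309 of 6467), DESeq2 size factors (3057 of 6007) and no filter (2987 of 5644). The same held in control mice alone (1341 of 2366) and in PBMT mice alone (2037 of 3859). The 1 correlated pair became 0 in the sedentary project alone and 0 in the fatigued project alone, with 12 mice each. Other causes were not tested.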
